A study of Mus musculus with 10 samples.

Results

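The 10 genes described here encode secreted Wnt antagonists (Sfrp1, Sfrp2, Sfrp4, Dkk2, Dkk3 and Wif1) and genes of the intracellular Wnt response (Nkd1, Nkd2, Axin2 and Lef1). They were chosen by name, among 48471 genes, and 9 of the 10 had enough counts to be tested. RNA was sequenced from CD90- and CD90+ myofibroblastic cancer-associated fibroblasts (myCAFs), the contractile, matrix-producing fibroblasts of a tumour. CD90 is the surface protein encoded by Thy1. Both fractions were flow-sorted from the same mouse pancreatic ductal adenocarcinomas (PDAC), which had grown from KPC T-LOH organoids transplanted into the pancreas, and the strain label of all libraries is C57BL/6J. There were 5 CD90- and 5 CD90+ libraries, 1 of each from 5 tumour pools. The titles list 11 animals, but the design text speaks of 5 male mice, and n is therefore the number of pools. No untreated pancreas and no fibroblasts from outside a tumour were compared, and the gate that defined myCAFs other than by CD90 is not given in the sources used here.

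Wnt ligands bind Frizzled receptors together with the coreceptors LRP5 and LRP6, which stops the destruction of beta-catenin, so that it enters the nucleus and acts with TCF and LEF factors on target genes. Secreted antagonists act outside the cell, where Sfrp proteins and Wif1 bind Wnt ligands and Dkk2 binds the LRP coreceptors. Nkd1, Nkd2 and Axin2 are induced by the pathway in many tissues and dampen it from within. Fibroblasts of several organs produce such antagonists, and the same genes can be controlled by signals other than Wnt.

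The promoters of the intracellular feedback genes Nkd1, Nkd2 and Axin2 are shown first, because these genes are the usual readouts of the pathway and all 3 were called lower in the CD90- fraction. Each stretch runs from 250 bases before to 50 bases after the annotated start, from RefSeq on GRCm38.p6, and capitals mark CG dinucleotides. Nkd1 lies at chr8:88527383-88527682 on the plus strand, Nkd2 at chr13:73847582-73847881 on the minus strand and Axin2 at chr11:108920099-108920398 on the plus strand.
Nkd1 promoter: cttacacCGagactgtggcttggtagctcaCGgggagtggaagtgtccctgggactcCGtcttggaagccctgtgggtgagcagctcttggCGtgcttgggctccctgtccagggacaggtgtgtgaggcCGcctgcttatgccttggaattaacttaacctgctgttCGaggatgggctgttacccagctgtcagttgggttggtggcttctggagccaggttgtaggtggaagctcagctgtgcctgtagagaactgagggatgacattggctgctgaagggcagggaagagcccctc
Nkd2 promoter: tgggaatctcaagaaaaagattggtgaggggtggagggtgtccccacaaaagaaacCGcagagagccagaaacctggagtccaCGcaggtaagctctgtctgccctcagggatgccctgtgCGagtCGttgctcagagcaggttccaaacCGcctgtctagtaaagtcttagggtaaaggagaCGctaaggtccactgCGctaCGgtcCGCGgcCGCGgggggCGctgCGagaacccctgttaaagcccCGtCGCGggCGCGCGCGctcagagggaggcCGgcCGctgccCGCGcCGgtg
Axin2 promoter: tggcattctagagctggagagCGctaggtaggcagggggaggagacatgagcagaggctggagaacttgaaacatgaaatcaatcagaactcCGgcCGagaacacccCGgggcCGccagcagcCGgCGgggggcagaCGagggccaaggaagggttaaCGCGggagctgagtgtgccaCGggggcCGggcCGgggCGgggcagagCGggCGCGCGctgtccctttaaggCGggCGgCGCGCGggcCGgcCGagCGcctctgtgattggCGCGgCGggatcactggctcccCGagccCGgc
The windows differ in CG content. Nkd1 had 6 CG dinucleotides, more than 43.6% of the 32851 annotated mouse windows of this length, whereas Nkd2 had 26 and Axin2 had 31, more than 83.1% and 89.4% of windows. The median over all windows was 7. RefSeq windows were matched for 7 of the 10 genes, and those of Sfrp2, Dkk2, Wif1 and Lef1 were searched with these 3. The TCF/LEF core CTTTG, read on either strand, was in none of the windows of Nkd1, Nkd2, Axin2 and Sfrp2, and was in those of Dkk2, Wif1 and Lef1. It is a short motif that 53.9% of all windows hold. Of the 7-letter forms that contain the core, only CTTTGAT and CTTTGAA were searched, which 3.73% and 5.14% of windows hold on either strand. Neither was in a window of these genes, and other 7-letter forms were not searched. The search covers these letters in these windows and no distal element.

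The libraries differed in more than CD90. Thy1 itself was at 2.07 to 16.0 CPM in CD90- libraries and at 39.2 to 117 CPM in CD90+ libraries (counts per 1 M of the normalised library), and fell by 3.50 on the log2 scale (SE 0.50, adjusted p = 0.0056). The files held 33.3 to 47.7 M estimated counts per CD90- library and 11.7 to 38.2 M per CD90+ library, of which 3.71 to 19.8 M and 4.57 to 28.5 M lay on nuclear protein-coding genes. Mitochondrial rRNA took 35.6 to 84.4% of gene-assigned counts in CD90- libraries and 10.5 to 44.8% in CD90+ libraries, and was higher in the CD90- library in 5 of 5 pools. Of 10 fibroblast markers, 9 were lower in CD90-, and their summed level was 4064 to 20516 CPM in CD90- and 32523 to 54036 CPM in CD90+ libraries. The fibroblast genes Col1a1 and Col1a2 were detected in all 10 libraries. Of 10 epithelial markers that would mark tumour cells, 7 were higher in CD90-, with sums of 719 to 3008 CPM in CD90- and 180 to 1634 CPM in CD90+ libraries. Sums of endothelial markers were 30.7 to 248 CPM in CD90- and 26.8 to 37.5 CPM in CD90+ libraries, those of pericyte markers 7.02 to 115 and 45.1 to 77.1 CPM, and those of macrophage and leukocyte markers 11.2 to 62.9 and 6.43 to 13.6 CPM. Of 6 endothelial markers, 0 were called lower and 2 higher. These were Pecam1 (5.27 to 31.6 CPM in CD90-, 0.799 to 5.11 CPM in CD90+ libraries) and Cdh5 (7.72 to 62.2 and 0 to 0.860 CPM). Of 5 pericyte markers 0 were called, and Rgs5 and Cspg4 went opposite ways (log2 folds 3.14 and -2.18). Of 6 macrophage and leukocyte markers 5 were tested, with 0 lower and 1 higher. Mesothelial sums were 153 to 257 CPM in CD90- and 174 to 293 CPM in CD90+ libraries, acinar sums 1.74 to 33.0 and 1.26 to 5.7 CPM, and Schwann sums 0.871 to 36.5 and 1.06 to 4.32 CPM. Of 5 mesothelial markers 0 were called lower and 1 higher, Msln (log2 fold 1.40), while the median log2 fold of the 5 was -1.63. Of 5 acinar markers 3 were tested, with 0 lower and 1 higher. The Schwann marker Sox10 was at 0 in all libraries. The CD90- library of pool 3 lay on the CD90+ side of the first principal component, and the CD90+ library of pool 5 lay apart from all others on the next.

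Of the 10 genes, 7 were called lower in the CD90- fraction, namely Sfrp1, Sfrp2, Sfrp4, Dkk3, Nkd1, Nkd2 and Axin2, and none was called higher. Dkk2 and Lef1 were not called, and Wif1 was not tested. Among the 15378 genes tested, 7.05% were called lower and 5.83% higher at an adjusted p under 0.05 (edgeR quasi-likelihood test, Benjamini-Hochberg). Without the block for the pool, the same 7 were called lower, against 3.54% of all genes. DESeq2 and limma-voom also called 7 lower and 0 higher, and called 11.8% and 7.34% of all genes lower. No gene of the 10 was higher at an unadjusted p under 0.05 in the main test. In 6 of the 10, every CD90- library lay below every CD90+ library, as it did in 4.62% of all genes tested. Because the RNA came from bulk sorted cells, fewer cells of a type and less RNA per cell cannot be told apart. The fibroblast marker sum was also lower in CD90- in 5 of 5 pools. The epithelial marker sum and the mitochondrial rRNA share were higher in CD90- in 5 of 5 pools. The part of these 3 measures in the result was not tested. When the share of mitochondrial rRNA was added as a covariate, 0 of the 10 and 0 of all genes tested were called, while 6 of the 10 and 882 of all 15378 genes had an unadjusted p under 0.05. Those 6 were Sfrp1, Sfrp2, Dkk3, Nkd1, Nkd2 and Dkk2, the last of which the main test did not call. Sfrp4 and Axin2 had an unadjusted p of 0.102 and 0.216 there (edgeR). Without pool 1, 3 of the 10 were called lower (Sfrp1, Dkk3 and Nkd2), against 2.38% of all genes. Without pools 4 and 5, 2 were called (Sfrp1 and Nkd2), against 1.14%.

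**Figure D1:**
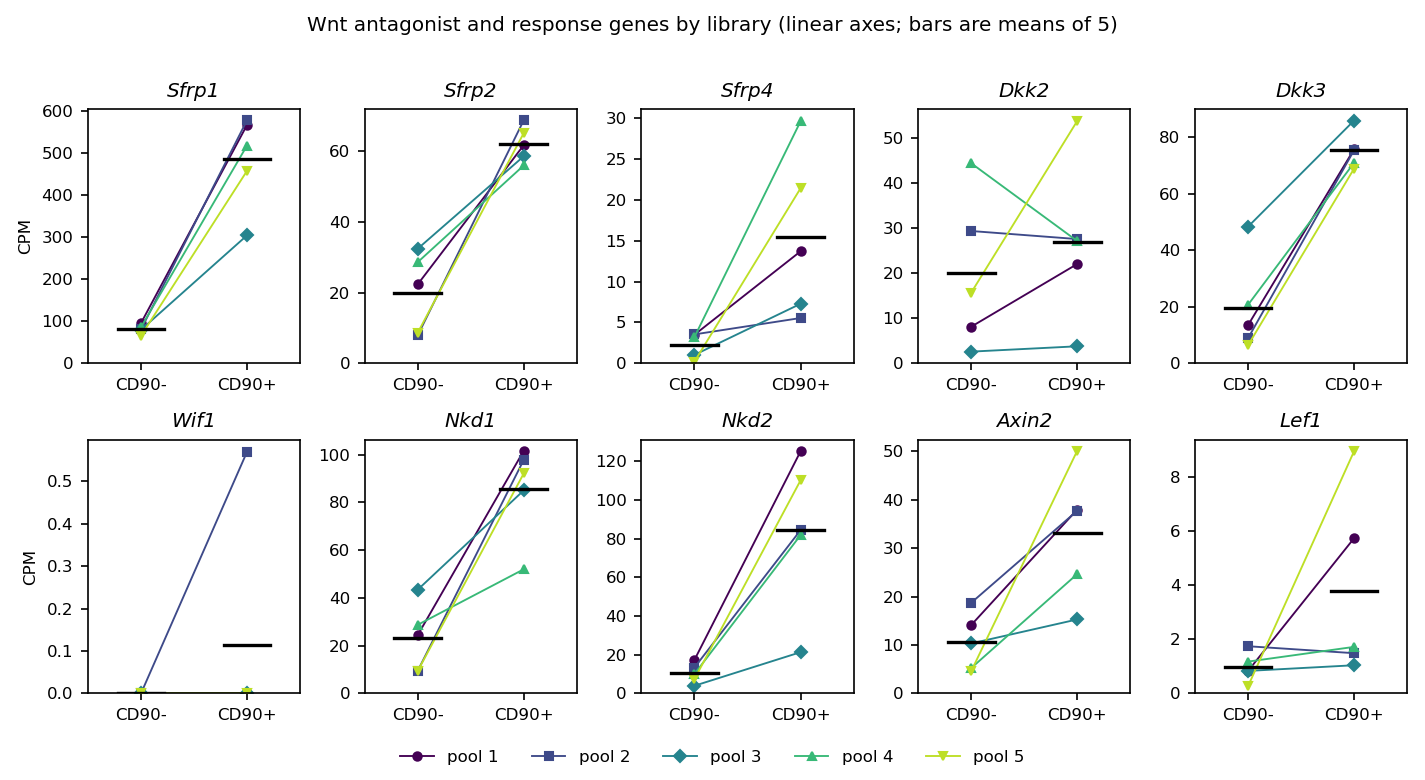
CPM (linear vertical axes that start at 0) of each of the 10 genes in CD90- libraries on the left and CD90+ libraries on the right of each panel. Each line joins the CD90- and CD90+ library of 1 tumour pool and short bars are means of 5. All 5 lines stand lower on the CD90- side for Sfrp1, Sfrp2, Sfrp4, Dkk3, Nkd1, Nkd2 and Axin2, whereas those of Dkk2 cross.

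Among the secreted antagonists, Sfrp1 (ENSMUSG00000031548, chromosome 8) was the most strongly expressed. Sfrp1 carries a Frizzled-like cysteine-rich domain with which it binds Wnt ligands. It was at 95.1, 80.0, 79.2, 85.5 and 65.0 CPM in the CD90- libraries of pools 1 to 5, against 567, 578, 304, 518 and 457 CPM in the CD90+ libraries of the same pools. The groups lay far apart, and each was narrow: the CD90- libraries spanned a 1.46-fold range and the CD90+ libraries a 1.9-fold range. The log2 fold of CD90- over CD90+ was -2.56 (SE 0.17, adjusted p = 0.000205), lower in 5 of 5 pools. Of all 15378 genes tested, Sfrp1 had the 2nd smallest p, although it ranked 430th by how negative its fold was.

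Sfrp2 (ENSMUSG00000027996, chromosome 3), a close relative that is also a secreted Wnt-binding protein, was more variable among the CD90- libraries. It was at 22.3, 7.88, 32.4, 28.6 and 8.61 CPM in CD90- pools 1 to 5, against 61.8, 68.9, 58.7, 56.1 and 65.2 CPM in the CD90+ libraries. The CD90+ libraries were almost level, within a 1.23-fold range, and the CD90- libraries spanned 4.12-fold, with pools 2 and 5 lowest. The groups did not overlap. The log2 fold was -1.85 (SE 0.38, adjusted p = 0.0181), and the call was lost without pool 1 (adjusted p = 0.0615) and without pools 4 and 5 (adjusted p = 0.0871).

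Sfrp4 (ENSMUSG00000021319, chromosome 13), also a secreted Frizzled-related protein, was expressed at a lower level. It was at 3.48, 3.52, 1.01, 3.20 and 0.185 CPM in CD90- pools 1 to 5, against 13.7, 5.53, 7.27, 29.6 and 21.4 CPM in CD90+ libraries. These values rest on 5 to 105 counts per CD90- library and 218 to 965 counts per CD90+ library. The groups did not overlap, but both were wide, and the library with the fewest counts was CD90- pool 5. The log2 fold was -2.83 (SE 0.76, adjusted p = 0.0464), just inside the threshold. Leaving out pool 1, 3 or 4 ended the call (adjusted p = 0.112, 0.114 and 0.116), as did counting protein-coding transcripts only (adjusted p = 0.0585). All 4 Sfrp4 transcripts are annotated as coding, so in that setting its own counts were unchanged and its log2 fold was -2.84. The other genes counted differed there, with 12656 genes tested.

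The 2 Dickkopf genes parted. Dkk3 (ENSMUSG00000030772, chromosome 7) is a divergent family member that, unlike its relatives, is not known chiefly as an LRP ligand. It was at 13.4, 8.75, 48.3, 20.6 and 6.28 CPM in CD90- pools 1 to 5, against 75.7, 75.4, 85.9, 71.0 and 68.9 CPM in CD90+ libraries. The CD90+ libraries held to a 1.25-fold range and the CD90- libraries spanned 7.69-fold. Pool 3 was the highest of the CD90- libraries, and the groups did not overlap. The log2 fold was -2.34 (SE 0.38, adjusted p = 0.00726).

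Dkk2 (ENSMUSG00000028031, chromosome 3), which binds LRP5 and LRP6, varied more between pools than between fractions. It was at 8.09, 29.4, 2.55, 44.4 and 15.7 CPM in CD90- pools 1 to 5, against 22.03, 27.6, 3.74, 27.1 and 53.8 CPM in CD90+ libraries. It was lower in the CD90- library in 3 of 5 pools, and pool 3 was the lowest in both fractions. The range was 17.4-fold within CD90- and 14.4-fold within CD90+ libraries, so the groups overlapped widely. The log2 fold was -0.59 (SE 0.36, adjusted p = 0.352), which does not show that the fractions are alike.

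Wif1 (ENSMUSG00000020218, chromosome 10), the secreted Wnt inhibitory factor, was close to undetected. It had 0 counts in all 5 CD90- libraries and in 4 of the 5 CD90+ libraries, and 23 counts (0.570 CPM) in CD90+ pool 2. A count of 0 allows up to 3 counts, or 0.0452 to 0.320 CPM depending on the library, for counting error only. It was left out of the test, and no fold is given.

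Inside the cell, Nkd1 (ENSMUSG00000031661, chromosome 8) and Nkd2 (ENSMUSG00000021567, chromosome 13) encode the Naked cuticle proteins, which bind Dishevelled and restrain the signal that activates them. Nkd1 was at 24.4, 9.45, 43.4, 28.7 and 9.42 CPM in CD90- pools 1 to 5, against 102, 97.8, 85.0, 52.0 and 92.1 CPM in CD90+ libraries. The closest approach was between CD90- pool 3 and CD90+ pool 4, and the groups did not overlap. The log2 fold was -2.10 (SE 0.43, adjusted p = 0.0169). The call was lost without pool 1 (adjusted p = 0.0698) and without pools 4 and 5 (adjusted p = 0.0652).

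Nkd2 had the most negative fold of the 10. It was at 17.3, 13.4, 3.96, 10.0 and 7.43 CPM in CD90- pools 1 to 5, against 125, 84.3, 21.3, 81.7 and 110 CPM in CD90+ libraries. Pool 3 was the lowest in both fractions, so that the difference within pools was more even than the levels. Within pools the log2 difference ran from -3.88 to -2.41. The fitted log2 fold was -2.96 (SE 0.22, adjusted p = 0.000324), and Nkd2 had the 6th smallest p of all genes tested. A gene on the opposite strand overlaps Nkd2, and the genes that overlap any of the 10 held at most 6.24 counts in a library.

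Axin2 (ENSMUSG00000000142, chromosome 11) is a scaffold of the complex that marks beta-catenin for destruction, and is widely used as a readout of Wnt signalling. It was at 14.1, 18.7, 10.3, 5.23 and 4.58 CPM in CD90- pools 1 to 5, against 38.0, 37.7, 15.3, 24.6 and 50.1 CPM in CD90+ libraries. The groups overlapped, since CD90- pool 2 stood above CD90+ pool 3, but the CD90- library was the lower of its pool in 5 of 5. The log2 fold was -1.70 (SE 0.40, adjusted p = 0.0271). It lost the call without pool 1 (adjusted p = 0.0880), without pool 4 (adjusted p = 0.0739) and without pools 4 and 5 (log2 fold -1.04, adjusted p = 0.0757).

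Lef1 (ENSMUSG00000027985, chromosome 3) encodes a DNA-binding partner of beta-catenin and is itself a target of the pathway in several tissues. It was at 0.826, 1.74, 0.832, 1.17 and 0.259 CPM in CD90- pools 1 to 5, against 5.73, 1.49, 1.04, 1.72 and 8.94 CPM in CD90+ libraries. The high values were those of CD90+ pools 1 and 5, and the other 3 CD90+ libraries lay among the CD90- libraries. With 7 to 52 counts per CD90- library and 56 to 123 per CD90+ library, the log2 fold of -1.52 had an SE of 0.91 and an adjusted p of 0.332. When protein-coding transcripts only were counted, the log2 fold was -3.08 (SE 1.28, adjusted p = 0.177 by edgeR), also not called. The CD90- library was lower in 4 of 5 pools.

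Levels of different genes can be compared per transcript length within a library, for which the deposited TPM (transcripts per 1 M) were used. Sfrp1 ranked 1st of the 10 genes in all 10 libraries, at 0.876 to 6.10 TPM in CD90- and 19.6 to 33.7 TPM in CD90+ libraries. TPM include the mitochondrial RNA of each library, so ranks within a library are more telling than these levels. Among nuclear protein-coding genes, the median percentile of Sfrp1 was 90.0 in CD90- and 98.9 in CD90+ libraries. That of Nkd2 was 64.4 in CD90- and 95.1 in CD90+ libraries, and that of Sfrp2 was 82.7 in CD90- and 94.4 in CD90+ libraries. Both fractions thus kept a ranked order with Sfrp1 on top, Lef1 9th and Wif1 10th in every library. The order of the 7 others changed from library to library: Nkd2 ranked 4th to 6th in CD90- and 2nd to 5th in CD90+ libraries, and Dkk2 ranked 2nd to 8th in CD90- and 7th to 8th in CD90+ libraries. No order among those 7 is therefore given.

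Within pools the genes fell into different patterns. Sfrp1 and Nkd2 had a more even difference than the others called, though for both it was smallest in pool 3. Log2 values of CD90- minus CD90+ were -2.57, -2.85, -1.94, -2.60 and -2.81 in pools 1 to 5 for Sfrp1. For Nkd2 they were -2.85, -2.65, -2.41, -3.02 and -3.88. Sfrp2, Dkk3 and Nkd1 had their largest differences in pools 2 and 5 and smaller ones in pools 3 and 4. For Sfrp2 it was -1.47, -3.12, -0.85, -0.97 and -2.91, for Nkd1 -2.05, -3.36, -0.97, -0.85 and -3.28, and for Dkk3 it was -2.49, -3.10, -0.83, -1.78 and -3.44. The summed fibroblast markers showed -2.53, -2.81, -0.66, -2.01 and -3.36 in the same pools. In pool 3 this sum and the 3 genes all differed by less than 1 on this scale, whereas in pool 4 the sum differed by more than Nkd1 and Sfrp2. Col1a1, Col1a2 and Col3a1 made up most of the sum, however. Single markers of the list ran from -3.38 (Acta2) to -0.91 (Pdgfra) in pool 4, with Dcn at -0.93. Acta2, Pdgfra, Dcn and Col3a1 were named after their values were seen. Axin2 had the widest gap in pool 5 (-3.43) and the narrowest in pool 3 (-0.56). Epithelial marker sums were higher in the CD90- library by 2.68, 1.26, 1.99, 2.14 and 0.88 in pools 1 to 5, with the smallest difference in pool 5. The part of these markers in the differences was not tested.

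**Figure D2:**
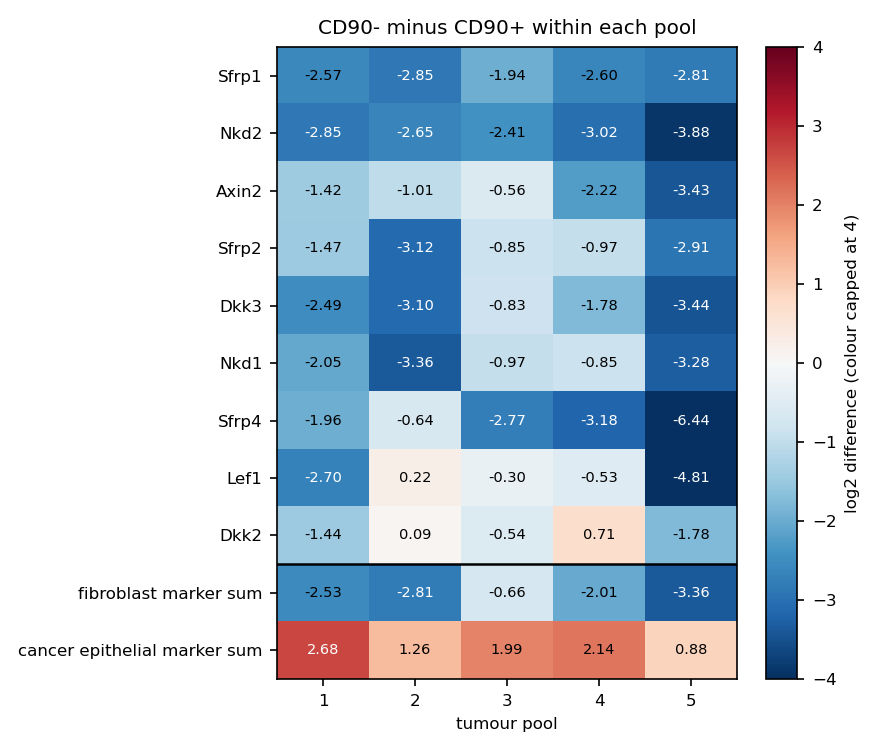
Log2 difference, CD90- minus CD90+, within each tumour pool (columns) for the 9 tested genes and 2 marker sums (rows), with blue for lower and red for higher in CD90- and the colour capped at 4. Sfrp1 and Nkd2 are blue in all pools and least so in pool 3 (-1.94 and -2.41), whereas Sfrp2, Dkk3 and Nkd1 are pale in pool 3. The fibroblast marker sum is pale in pool 3 (-0.66) and not in pool 4 (-2.01), where Sfrp2 (-0.97) and Nkd1 (-0.85) are. Col1a1, Col1a2 and Col3a1 make up most of this sum.

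Pearson correlations of log2 CPM over the 10 libraries, which share 5 pools and the difference between fractions, are given as description. They use the same values as the differences above. Sfrp2 with Nkd1 reached 0.98, Sfrp2 with Dkk3 0.96 and Sfrp1 with Nkd2 0.93. Sfrp1 was also at 0.85 with Sfrp2, 0.85 with Nkd1 and 0.84 with Dkk3, whereas Nkd2 was at 0.69, 0.68 and 0.63 with them. Axin2 came closest to Nkd2 (0.87), and Lef1 to Axin2 (0.83). Dkk2 stood apart, at 0.54 with Nkd2, -0.02 with Nkd1 and -0.08 with Dkk3. Nearest genes were sought among 7251 whose log2 CPM averaged 3 or more, leaving out Gm and Rik symbols and pseudogenes. The nearest to Sfrp1 were Thbs2 (0.985), a matricellular thrombospondin, and Ltbp2 (0.981), a matrix protein related to those that bind latent TGF-beta. Those nearest to Nkd2 were Spon1 (0.990), a secreted spondin, and Lama1 (0.975), a laminin chain. Dkk3 was nearest to Lpl (0.995), lipoprotein lipase, and Serpinh1 (0.993), the collagen chaperone. Nkd1 was nearest to the transcription factor gene Maf (0.986) and to Sfrp2, and Sfrp2 to Nkd1 (0.983) and Ak5 (0.981), an adenylate kinase. Sfrp4 was nearest to Flnc (0.944), a filamin, and Postn (0.933), a matricellular protein. Axin2 was nearest to Mtss1l (0.962) and Lgi2 (0.961). Dkk2 was nearest to Fnbp4 (0.954) and Snrnp70 (0.940), a component of the spliceosome.

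The deposited values are per transcript. Sfrp1, Dkk2 and Dkk3 each had a single matched transcript. Nkd1-201 held 90.5 to 100% of the Nkd1 counts in CD90- and 93.1 to 96.7% in CD90+ libraries. Nkd2-201 held 63.5 to 100% of the Nkd2 counts in CD90- and 87.4 to 98.4% in CD90+ libraries, so a single transcript carried most of the counts of both Naked genes. The counts of Lef1 scattered over transcripts, among them the retained-intron transcript Lef1-205 with 18.2 to 100% in CD90- and 0 to 37.4% in CD90+ libraries, at few counts.

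Axin2 was divided between 2 coding transcripts that differ by a whole exon. Axin2-202 lacks coding exon 7 of Axin2-201, which is 195 bases long, or 65 codons in frame. The exon lies at chr11:108942935-108943129 on the plus strand of GRCm38, and is shown in capitals with 15 bases of the neighbouring exons in lower case, because it is the stretch by which the 2 messages differ inside their coding part.
Axin2 exon 7: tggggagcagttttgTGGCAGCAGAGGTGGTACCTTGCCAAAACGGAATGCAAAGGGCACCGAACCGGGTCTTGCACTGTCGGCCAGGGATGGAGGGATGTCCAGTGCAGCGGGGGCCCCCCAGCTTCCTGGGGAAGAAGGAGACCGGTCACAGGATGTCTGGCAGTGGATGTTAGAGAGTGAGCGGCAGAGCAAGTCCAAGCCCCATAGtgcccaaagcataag
Axin2-202 held 48.3, 73.1, 43.5, 19.96 and 47.1% of the Axin2 counts in CD90- pools 1 to 5, against 9.24, 11.6, 30.6, 32.5 and 20.1% in CD90+ libraries. Its share was higher in CD90- in 4 of 5 pools, and pool 4 went the other way. The mean was 46.4% ± 18.9 in CD90- and 20.8% ± 10.6 in CD90+ libraries (SD, n = 5), with a difference of 25.6 percentage points and an exact paired permutation p of 0.125, two-sided, where 0.0625 is the smallest that 5 pools allow. The share of Axin2-201 was 44.6% ± 22.2 in CD90- and 62.1% ± 10.3 in CD90+ libraries (SD, n = 5, exact p = 0.3125). These transcripts were singled out after their values were seen, rest on 49 to 558 Axin2 counts in CD90- and 510 to 1522 in CD90+ libraries, and are divided by a model, and their last exons also differ, with 243 bases in Axin2-202 and 1515 in Axin2-201.

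**Figure D3:**
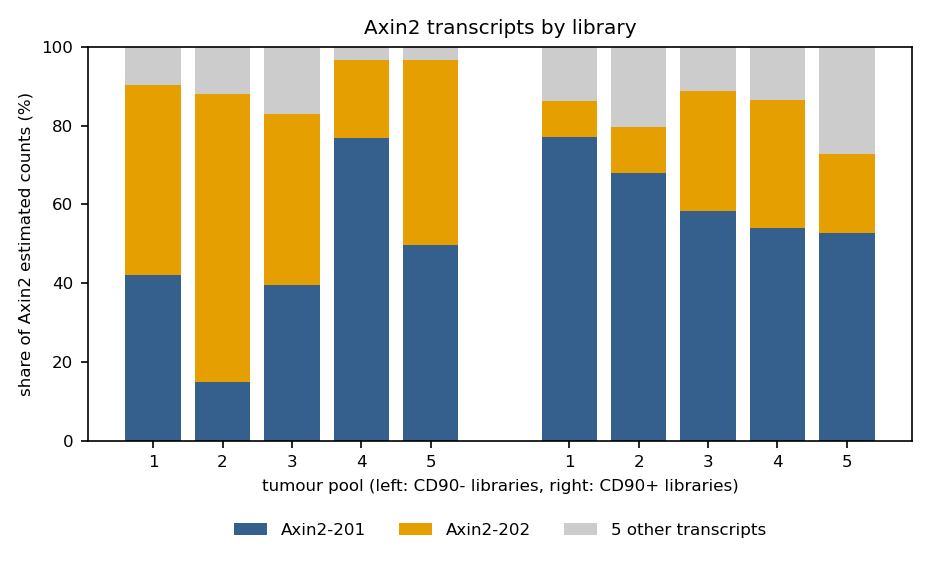
Share of the Axin2 estimated counts (%, stacked bars) on Axin2-202, Axin2-201 and the 5 other transcripts in each library, with CD90- pools 1 to 5 on the left and CD90+ pools 1 to 5 on the right. Axin2-202 takes a mean of 46.4% in CD90- and 20.8% in CD90+ libraries, with pool 4 against this order.

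Another 55 genes of the pathway were examined to place these 10. Of 45 tested, 6 were called lower and 8 higher, and their median log2 fold was -0.02, against 0.04 for all genes tested. These counts rest on single pools, with 2 lower and 1 higher without pool 1, 2 higher without pool 2, and 2 lower without pool 4 or without pool 5. Among other antagonists, 7 of 15 were tested, with 2 lower, 1 higher and a median of -1.35. Kremen1, a receptor for Dickkopf proteins, fell to 23.1 ± 6.29 CPM in CD90-, against 57.6 ± 8.21 CPM in CD90+ libraries (SD, n = 5; log2 fold -1.35, SE 0.21, adjusted p = 0.00431 by edgeR). Frzb, a secreted Frizzled-related protein, fell by 4.11 on the log2 scale (SE 1.15, adjusted p = 0.0434), but the CD90- library of pool 3 held 4.59 CPM and the next CD90- library 0.201 CPM, and leaving out pool 1, 2, 4 or 5 ended its call (adjusted p between 0.0917 and 0.149). Its log2 fold was -1.90 without the block (adjusted p = 0.42) and -2.09 with limma-voom (adjusted p = 0.149), neither of them called. Rnf43, a ubiquitin ligase that removes Frizzled receptors, rose to 14.8 ± 8.48 CPM in CD90-, against 4.59 ± 3.66 CPM in CD90+ libraries (SD, n = 5; log2 fold 1.98, SE 0.47, adjusted p = 0.0235 by edgeR), and was not called without pool 1 or pool 2 (adjusted p = 0.107 and 0.0835). Its partner Znrf3 had a log2 fold of 0.20 and Draxin, a secreted inhibitor, of -2.60 (adjusted p = 0.0588), both not called. DESeq2 did call Draxin lower (adjusted p = 0.000169).

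Of 12 other response genes, 10 were tested, with 4 lower, 3 higher and a median of -0.43. Tnfrsf19, a TNF receptor family member, fell to 2.76 ± 1.96 CPM in CD90-, against 19.9 ± 10.3 CPM in CD90+ libraries (SD, n = 5; log2 fold -2.85, SE 0.41, adjusted p = 0.00377 by edgeR). Lgr5, a receptor for R-spondins, had 2.39 ± 0.876 CPM in CD90- and 7.60 ± 4.64 CPM in CD90+ libraries (SD, n = 5; log2 fold -1.54, adjusted p = 0.0314 by edgeR) and lost its call when any 1 pool was left out (adjusted p between 0.0546 and 0.0949). Ccn4 and Ccn5, matricellular proteins named after their values were seen, had log2 folds of -1.90 and -2.32. Leaving out pool 1, 4 or 5 ended the call of Ccn4 (adjusted p up to 0.118), and leaving out any pool but pool 2 that of Ccn5 (up to 0.158). Ccnd1, cyclin D1, rose to 125 ± 26.1 CPM in CD90-, against 28.2 ± 17.1 CPM in CD90+ libraries (SD, n = 5; log2 fold 2.35, SE 0.37, adjusted p = 0.00653 by edgeR). The other genes called higher were Cd44 (log2 fold 0.64) and Sox9 (0.86, named after its values were seen), which like Ccnd1 and Rnf43 are expressed by many epithelial cells. The epithelial marker sum was also higher in CD90- in 5 of 5 pools, and its part in these genes was not tested. Leaving out any pool but pool 3 ended the call of Cd44 (adjusted p up to 0.130), and leaving out pool 1, 2 or 3 that of Sox9 (up to 0.149). Myc and Tcf7, with log2 folds of 0.25 and 0.81, were not called.

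All 15 genes of the cytoplasmic relay, which passes the signal from receptor to beta-catenin, were tested, 0 were called lower and 2 higher, with a median of -0.02. Of the 15, 4 (26.7%) had an unadjusted p under 0.05, as did 26.9% of all genes tested, and DESeq2 and limma-voom also called 0 lower. In either direction, this share was 77.8% of the 9 tested among the 10 genes. It was 71.4% of the 7 other antagonists tested and 80% of the 10 other response genes tested. Apc, a scaffold of the destruction complex, rose to 89.6 ± 7.89 CPM in CD90-, against 59.5 ± 3.50 CPM in CD90+ libraries (SD, n = 5; log2 fold 0.59, SE 0.14, adjusted p = 0.0206 by edgeR). Tnks2, a tankyrase that marks axins for degradation, rose by 0.76 on the log2 scale (adjusted p = 0.0223). Without pool 1 neither was called (adjusted p = 0.114 for Apc and 0.104 for Tnks2), nor without pool 2 (0.0582 and 0.0764), and Tnks2 was not called without pool 4 (0.0805). Ctnnb1, which encodes beta-catenin, had a log2 fold of 0.59 (adjusted p = 0.0671), and the kinase gene Csnk1a1 of -0.09, both not called. DESeq2 and limma-voom called Ctnnb1 higher (adjusted p = 0.0173 and 0.0273). Of 13 nuclear cofactors, 0 were called lower by edgeR, where 6 (46.2%) had an unadjusted p under 0.05. DESeq2 and limma-voom each called 2 lower, Tcf7l1 and Pygo1, both named after their values were seen. The TCF factor gene Tcf7l2 rose to 73.8 ± 21.9 CPM in CD90-, against 40.8 ± 21.0 CPM in CD90+ libraries (SD, n = 5; log2 fold 0.96, SE 0.19, adjusted p = 0.0117 by edgeR), and was not called without pool 1 (adjusted p = 0.0656). The corepressor gene Tle4 also rose (log2 fold 1.77, SE 0.39, adjusted p = 0.0182) and was not called without pool 1 or pool 2 (adjusted p = 0.0828 and 0.0647), while Bcl9l (0.06) and Tle3 (0.19) were not called.

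**Figure D4:**
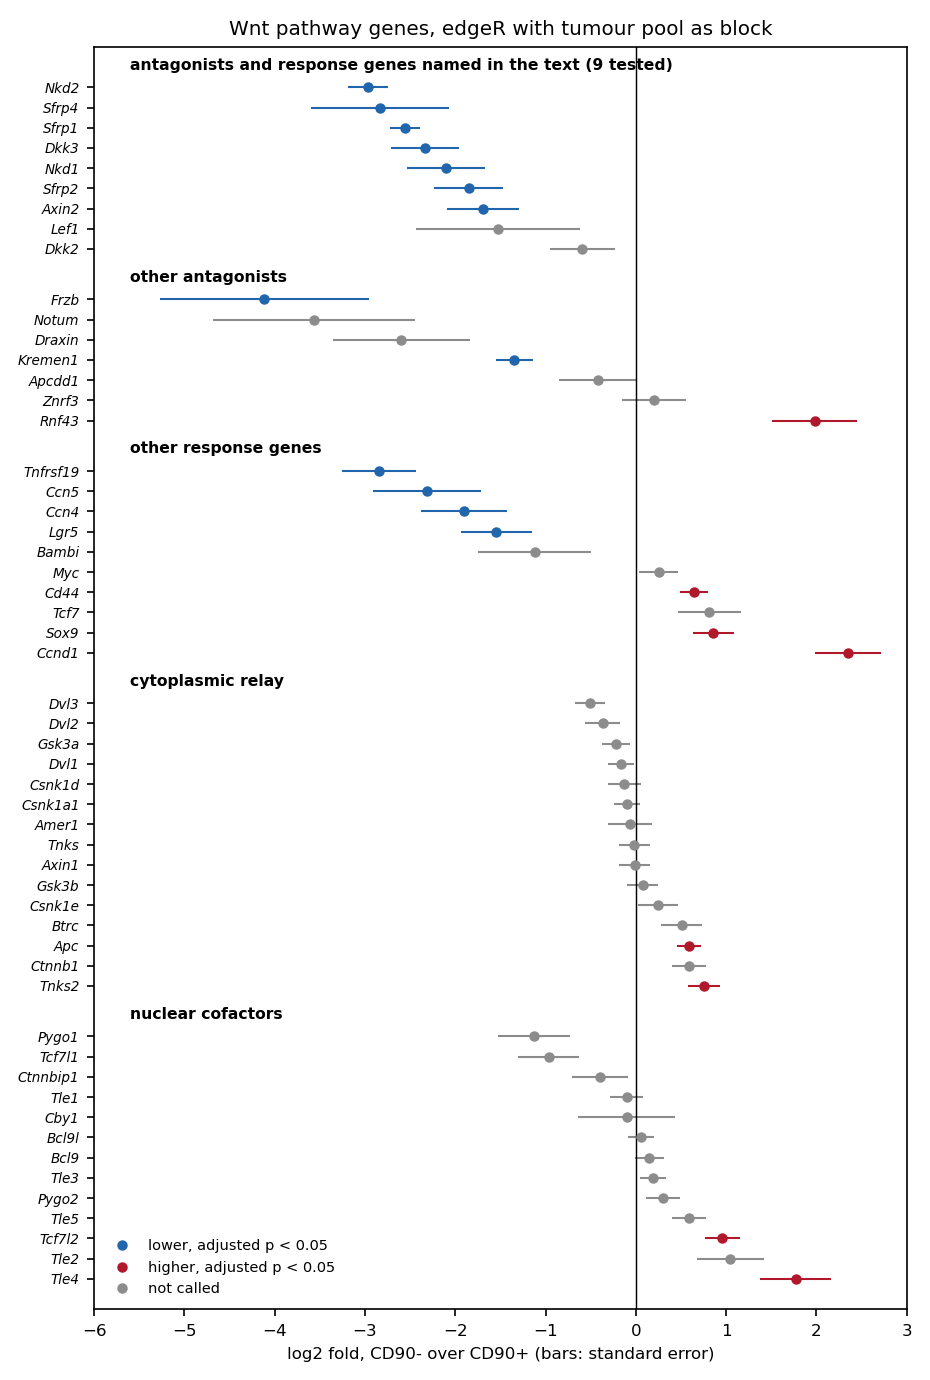
Log2 fold of CD90- over CD90+ (horizontal axis, points with standard errors) for the 9 tested antagonist and response genes and the 45 other Wnt genes tested, in 4 further groups down the page. Blue marks genes called lower, red higher and grey not called. The 9 genes at the top lie between -2.96 and -0.59, with a median of -2.10. The median is -1.35 for other antagonists, -0.43 for other response genes, -0.02 for the 15 genes of the cytoplasmic relay and 0.15 for nuclear cofactors.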

How the data were processed

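Sorted CD90- and CD90+ myCAF libraries (5 each) were compared. The authors deposited estimated counts, TPM and effective lengths per transcript from Salmon 1.9.0, with the builds GRCm39 and mm39, per the submitters' processing notes; no annotation release or strand setting is given in the sources used here. The kit was stranded, the input 0.1 to 1.2 ng of RNA and its integrity number 3.1 to 8.7, per the labels' protocols. PCR without molecular identifiers makes reads non-independent, so counting limits cover counting error only.

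Of 144584 transcripts, 133666 (92.4%) matched GENCODE M21 by identifier, used for names only apart from the Axin2 exons, and 3.6 to 12.1% of a library's counts were unmatched and left out. Estimated counts were summed over 48471 genes, rounded and tested by edgeR 4.0.16 (R 4.3.3) with TMM scaling, filterByExpr and a robust quasi-likelihood fit, with Benjamini-Hochberg adjustment over the 15378 genes tested and a threshold of 0.05. SE is that of the log2 fold, and CPM use the library size after TMM scaling. The tumour pool was a block, because both fractions of a pool carry the same animal numbers; the paired libraries' deviations from the mean of their fraction had correlations of 0.06, 0.00, 0.46, 0.03 and 0.19. Alternatives included DESeq2 1.42.0, limma-voom (limma 3.58.1), other filters and normalizations, and each pool left out.

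The genes, lists and tests were chosen with earlier results of these data known. Named genes were the 10, Thy1, up to 4 called genes with the smallest p and up to 2 not called with the highest mean level from each other Wnt list, the 2 genes nearest by correlation to each of the 10 whose log2 CPM averaged 3 or more, and defining markers; genes named after their values were seen are marked.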

Additional observations from a re-analysis of the deposited data

Results flagged for a closer look

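In 6 of the 76 groups of 5 libraries examined, 1 library stood far from the other 4. The cutoff passes about 1 in 20 groups of independent, normally distributed values. These groups share the same libraries and were taken on the linear CPM scale, so that rate is no baseline for them. None of the 6 was among the 10 genes, although Wif1, which was not tested, had counts in only 1 library (0.570 CPM in CD90+ pool 2). Frzb was at 4.59 CPM in CD90- pool 3, above the next CD90- library at 0.201 CPM. Tle4 was at 39.0 CPM in CD90+ pool 5, above the next CD90+ library at 5.65 CPM. Csnk1a1 was at 225 CPM in CD90+ pool 3, above the next at 145 CPM. The summed epithelial markers were at 1634 CPM in CD90+ pool 5, above the next CD90+ library at 556 CPM. In CD90- pool 2 the summed endothelial markers were at 248 CPM, above the next CD90- library at 58.4 CPM, and the summed pericyte markers at 115 CPM, above the next at 28.5 CPM.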

How the results depend on the processing

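The main test called 7 of the 10 genes lower. The count was 0 with mitochondrial rRNA share as covariate, 2 without pools 4 and 5, 3 at a threshold of 0.01, and between 3 and 7 when each pool was left out in turn. Without the replicate block the count was 7, against 3.54% of all genes tested. It was within 1.5 times under the other settings, and no setting called any of the 10 higher. With the covariate the log2 folds of the 7 stayed negative, between -4.87 and -1.94; this share differs between the fractions in every pool, so the covariate and the fraction carry overlapping information. Sfrp1 and Nkd2 lost the call under no other setting. Of the 55 other Wnt genes, 6 were called lower: 2 without the replicate block, 3 among genes whose log2 CPM averaged 3 or more, 3 with protein-coding transcripts only, 0 with the covariate, 1 without pools 4 and 5, 10 with DESeq2, 2 at a threshold of 0.01, and 2 to 5 with 1 pool left out. Of these genes, 8 were called higher: 4 without the replicate block, 0 with the covariate, 5 without pools 4 and 5, 1 at a threshold of 0.01, and 1 to 8 with 1 pool left out. Frzb changed sign with the covariate (log2 fold 1.62, adjusted p = 0.937). Causes were not tested. Without pool 3, chosen after the data were seen, 7 of the 10 genes had groups that did not overlap, against 11.1% of all genes. The Axin2-202 difference was 16.6 to 35.1 percentage points with 1 pool left out. Lef1, with 7 to 52 counts per CD90- library, Sfrp4, with 5 to 105, and Wif1, with 0, are the least deeply counted of the 10.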
